A study of Rattus with 9 samples.

Results

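The scavenger receptors and related lectins that mark tissue-resident macrophages were followed through single-cell RNA sequencing (scRNA-seq) of the rat bile duct. The list had 9 gene symbols, namely Cd163, Mrc1, Marco, Folr2, Clec10a, Msr1, Stab1, Fcna and Timd4, and 8 of them matched a symbol among the 23836 in the gene annotation of the count matrices. Timd4 was not analysed here. Bile ducts of Sprague-Dawley rats were dissociated with enzymes and profiled by droplet sequencing of transcript ends. The sham group had 3 samples of 1 library each (sham1 to sham3). The ctrl group was taken after liver transplantation (LT) with ischemic injury of the graft, and the treat group after the same operation with the splenic and gastroduodenal arteries tied off to raise arterial flow to the graft. Both arms had 1 sample at each of days 1, 3 and 7, each of 3 libraries, of which 2 were usable in treat3D. All 6 transplanted samples thus shared transplantation and ischemia, and the rats of the study were of both sexes and 6 to 8 weeks old, with no age or sex given by group.

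Resident macrophages clear debris, modified lipoproteins, glycoproteins and free hemoglobin through surface receptors that recognise broad classes of ligand. Most of these receptors are high in long-lived tissue macrophages and low in monocytes newly arrived from blood, which is why they serve as residency markers in liver and other organs. Some are shared with endothelium that takes up macromolecules, among them Stab1 and Mrc1.

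After filtering, 138912 cells from 20 libraries remained, with 311 to 12528 cells per library and 14398295 to 109245177 unique molecular identifiers (UMIs) per library over all barcodes. Clusters were built without the 8 genes and named from other markers, such as C1qa, C1qb, C1qc and Csf1r for macrophages and Fcnb and Vcan for inflammatory monocytes. F13a1, also on the monocyte list, was seen in 4.77% of inflammatory monocyte-like cells. It was a leading gene of sub-clusters 10 and 20, which are counted as macrophage-like. The clusters gave 13242 macrophage-like, 14337 monocyte-like (inflammatory and patrolling together) and 1851 DC-like cells. C1qa, a subunit of complement C1q, was seen in 87.0% of the macrophage-like cells and Csf1r, the receptor of their growth factor, in 73.8%. Csf1r does not separate them from patrolling monocyte-like cells, where it was seen in 79.4% and was higher, at 912 against 475 CPM. There were 19856 biliary epithelial-like cells over the 9 samples of this bile duct tissue. Several libraries stood apart. In ctrl3D_2 and ctrl3D_3 only 411 of 2907 and 337 of 4298 barcodes stayed under the hemoglobin limit, sham1 held 2268 cells with 338 macrophage-like cells at a median of 1186 UMIs, and the ctrl7D_2 library gave 90.7% of a phagocyte sub-cluster that stayed unnamed. The macrophage-like class was also made of different sub-clusters in different samples. Sub-cluster 4, whose median of 1129 UMIs was low, held 74.0% of it in sham1 and 68.7% in ctrl1D, sub-clusters 10 and 14 held most of it in sham2 and sham3, sub-cluster 16 held 51.3% in ctrl3D, sub-cluster 20 held 32.5% in treat1D, and sub-clusters 3 and 6 were the 2 largest in treat3D and in both day 7 samples. Library pairs shared at most 48 barcodes (ctrl7D_1 and treat3D_3), and no pair shared more than 0.965% of its smaller library.

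Across cell classes, 6 of the 8 genes had their highest median level in macrophage-like cells, as counts scaled to the UMI total of the class in each sample (CPM). Levels are compared within a gene and not between genes. Cd163, the receptor for hemoglobin bound to haptoglobin, had a median over samples of 87.3 CPM in macrophage-like cells, 6.83 in inflammatory monocyte-like cells and 0.858 in B-like cells. For Folr2, a folate receptor, the order was macrophage-like (347), inflammatory monocyte-like (47.5) and patrolling monocyte-like cells (8.78). For Clec10a, a C-type lectin that binds galactose-type sugars, it was macrophage-like (945), inflammatory monocyte-like (389.6) and DC-like cells (61.2). In these 3 genes the macrophage-like cells were above the next class in every sample that held both.

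The other genes were shared more widely. Mrc1, the mannose receptor, reached 390 CPM (median) in macrophage-like, 90.2 in lymphatic endothelial-like and 74.0 in inflammatory monocyte-like cells, and macrophage-like cells exceeded lymphatic endothelium in 9 of 9 samples. Fcna, a secreted lectin of the ficolin family that marks macrophages although it is not a receptor, was at a median of 231 in macrophage-like, 121 in patrolling monocyte-like and 119 in inflammatory monocyte-like cells, with macrophage-like above patrolling monocyte-like cells in 6 of 7 samples. Msr1, the class A scavenger receptor for modified lipoproteins, was at 54.6 in macrophage-like and 53.0 in inflammatory monocyte-like cells, the former higher in 5 of 9 samples, so these neighbours did not differ beyond the spread between samples. Stab1, the multifunctional receptor stabilin-1, led in lymphatic endothelial-like cells (12.01) before macrophage-like (7.16) and blood endothelial-like cells (3.95). Lymphatic cells were above macrophage-like cells in 6 of 9 samples and macrophage-like above blood endothelial-like cells in 5 of 9, so this order was not beyond the spread either. Marco, a class A receptor for bacteria and particles, was at 0 in most samples of each class and is described separately.

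**Figure D1:**
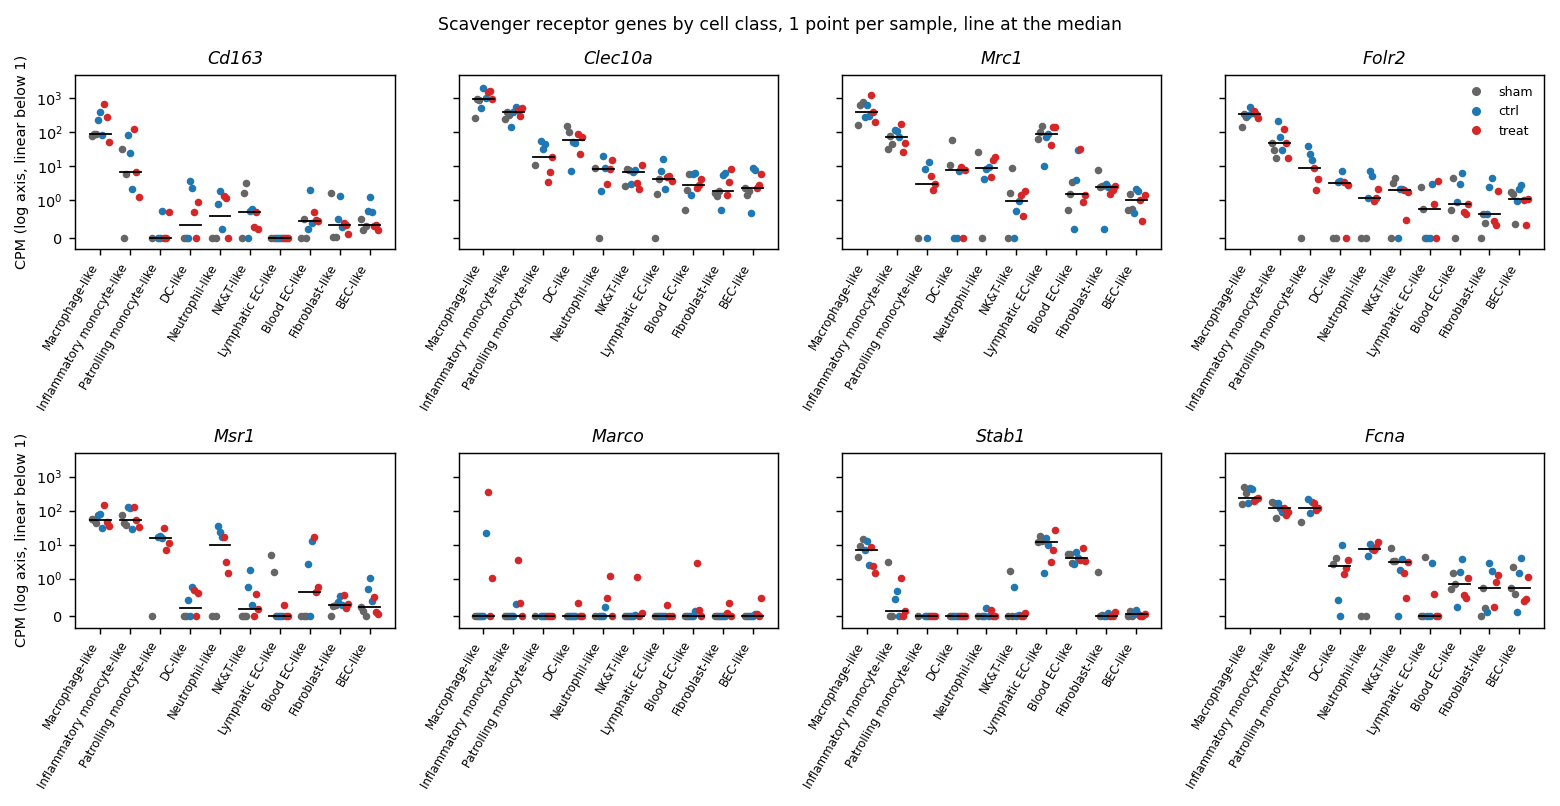
Level of each gene by cell class, in CPM on a log axis that is linear below 1, with a point for each sample of at least 20 cells coloured by group and a line at the median. Macrophage-like cells have the highest median for Cd163, Mrc1, Folr2, Clec10a and Fcna, whereas Msr1 has medians of 54.6 in macrophage-like and 53.0 in inflammatory monocyte-like cells and Stab1 is led by lymphatic endothelial-like cells at 12.01.

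Shares of cells with a UMI were taken after thinning each cell to 1000 UMIs, because depth differed between classes. Among macrophage-like cells, with a median of 4775 UMIs, Clec10a was seen in 43.1% after thinning and 61.2% before, and Mrc1 in 26.4% and 51.0%. Folr2 was seen in 23.7% and 53.7%, Fcna in 18.1% and 40.8%, and Cd163 in 9.50% and 19.7%. Msr1 was seen in 4.48% and 20.01%, against 7.40% and 32.4% of inflammatory monocyte-like cells with a median of 5767 UMIs. Lymphocytes should lack these genes, and NK&T-like cells, with a median of 3194 UMIs, gave thinned shares of 0.865% for Clec10a, 0.396% for Fcna, 0.147% for Folr2, 0.102% for Mrc1, 0.0735% for Cd163 and 0.0226% for Msr1. Every macrophage-like share above was therefore higher than the lymphocyte background. Stab1 was seen in 0.671% of thinned macrophage-like cells and in 1.45% of lymphatic endothelial-like cells. In all, 9669 cells under 1000 UMIs were left out of these shares, and intervals on them would cover counting error only.

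Of all UMIs of each gene in kept cells, macrophage-like cells held 73.4% for Cd163, 72.5% for Mrc1, 70.4% for Folr2, 70.3% for Clec10a and 67.9% for Fcna. For Stab1 the share was 50.8%. For Msr1 it was 30.5%, with 47.0% in inflammatory monocyte-like cells.

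To compare resident macrophages with monocytes, the summed counts of macrophage-like and monocyte-like cells of the same sample were fitted with edgeR's quasi-likelihood test with the sample as a block, over 9 samples. Of the 5 genes that passed the filter on low counts within each class, 4 (Mrc1, Folr2, Clec10a and Fcna) were higher in macrophage-like cells, where 24.5% of all 9598 genes tested were higher and 47.3% were called in either direction. Cd163 and Stab1 reached the filter's level in 7 and 1 of the 9 monocyte-like sums and entered the test through the macrophage-like cells, so they are not counted. Cd163, Clec10a, Folr2 and Mrc1 were each higher in macrophage-like cells in all 9 samples.

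Cd163 was between 53.3 and 686 CPM in macrophage-like cells (median 87.3). In monocyte-like cells it was at 24.7, 0 and 5.61 in sham1 to sham3, at 82.9, 22.9 and 1.59 in ctrl1D, ctrl3D and ctrl7D, and at 118, 6.43 and 1.06 in treat1D, treat3D and treat7D. The highest monocyte-like levels were thus those of day 1, and the 2 ranges overlapped although each sample's macrophage-like level was the higher one. No fold is given for Cd163, because it entered the test through the macrophage-like cells. For Mrc1 the log2 fold change was 2.73 (SE 0.237, edgeR adjusted p = 6.81e-07). Its monocyte-like levels were 24.7 to 167 CPM, against 163 to 1251 in macrophage-like cells. For Folr2 the log2 fold change was 2.74 (SE 0.355, edgeR adjusted p = 2.44e-05). Its monocyte-like levels ranged from 13.7 CPM in treat7D to 205 in ctrl1D. Day 1 again held the highest monocyte-like values of Folr2 and Mrc1.

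Clec10a differed less, with a log2 fold change of 1.57 (SE 0.163, edgeR adjusted p = 3.24e-06) and monocyte-like levels from 143 to 440 CPM. Fcna had a log2 fold change of 1.15 (SE 0.234, edgeR adjusted p = 0.00110) and was higher in macrophage-like cells in 3 of 3 sham and 5 of 6 transplanted samples. Stab1, at 1.43 to 14.7 CPM in macrophage-like cells, had 33 UMIs in all monocyte-like cells and none in 4 of the 9 samples, so no fold is given for it.

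Msr1 stood apart from the other genes in this comparison. Its monocyte-like levels were 59.2, 41.6 and 36.4 CPM in sham1 to sham3, 129, 112 and 23.0 in ctrl1D, ctrl3D and ctrl7D, and 121, 50.3 and 26.3 in treat1D, treat3D and treat7D. Macrophage-like cells were higher in 2 of 3 sham and 3 of 6 transplanted samples. The log2 fold change was −0.12 (SE 0.149, edgeR adjusted p = 0.539), and with clusters at a finer resolution it was 0.14, so no direction could be given.

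Against DC-like cells, Clec10a alone passed the filter on low counts within both classes, over 8 samples. It was higher in macrophage-like cells, with a log2 fold change of 4.19 (SE 0.409, edgeR adjusted p = 1.06e-05), in a comparison where 39.8% of 8130 genes were called and 21.1% were higher, and DC-like cells carried 7.40 to 153 CPM of it. With clusters taken at Leiden resolution 2 its log2 fold change was 1.09 (edgeR adjusted p = 5.74e-05). Sub-cluster 11 (1094 cells) was led by Clec10a, RT1-Da and RT1-Bb among others. It was counted as inflammatory monocyte-like on 36.4% of that class's markers. Its part in the Clec10a differences from monocyte-like and from DC-like cells was not tested. Cd163, Msr1, Folr2, Fcna and Mrc1 entered the test through the macrophage-like cells, so their levels are given without a fold or a count. In 1845 DC-like cells they had 12, 7, 47, 46 and 105 UMIs, at 0 to 3.69 CPM for Cd163, 0 to 0.768 for Msr1, 0 to 7.30 for Folr2, 0 to 9.99 for Fcna and 0 to 60.2 for Mrc1.

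Other genes of the same pathways were counted from lists, beside 24.5% of all genes higher and 22.9% lower in this comparison. Of 14 other scavenger receptors tested, 8 were higher and 4 lower in macrophage-like than in monocyte-like cells, among them Axl, a receptor for apoptotic cells (log2 fold change 4.18), Cxcl16, which also binds oxidised lipoprotein (2.52), Scarf1 (2.13) and Lyve1, a hyaluronan receptor (2.03). Of 19 macrophage transcription factors, 6 were higher and 8 lower, with Spic, the factor of iron-recycling macrophages, at 1.67 and Id1 at −1.75. Of 13 heme and iron genes, 5 were higher and 4 lower, with Hp, which encodes haptoglobin, the ligand carrier of Cd163, at −4.40 and Slc48a1, a heme transporter, at 1.49. Of 17 genes that induce or shed these receptors, 2 were higher and 8 lower, with Il6 at −2.53. The inflammatory monocyte genes (1 higher and 16 lower of 18) and the opsonins (6 higher and 5 lower of 12) hold markers that named the classes, so their counts are not independent of the naming.

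In endothelium, Mrc1 and Stab1 were read in lymphatic and blood endothelial-like cells, as levels. Mrc1 in lymphatic endothelial-like cells was at 62.5, 105 and 157 CPM in sham1 to sham3, at 10.5, 73.9 and 90.2 in ctrl1D, ctrl3D and ctrl7D, and at 41.1, 147 and 146 in treat1D, treat3D and treat7D. In blood endothelial-like cells it was between 0.241 and 32.1 CPM, with the values above 5 in ctrl7D (30.9) and treat1D (32.1). Lymphatic cells were higher in every sample. Mrc1 entered the test through them, since 2 of the 9 blood endothelial-like sums reached the filter's level, so no fold is given for it. Stab1, with 85 UMIs in 1155 lymphatic endothelial-like cells, was at 1.499 to 27.6 CPM in these and 2.65 to 7.78 CPM in blood endothelial-like cells, and these ranges overlapped. Stab1 also entered the test through the lymphatic cells, where 7 of the 9 sums reached the filter's level, against 2 of the 9 blood endothelial-like sums. No fold is given for it either. Msr1 was also seen in 0.928% of thinned and 1.68% of unthinned blood endothelial-like cells (median 3886 UMIs), against 0.0226% and 0.109% of NK&T-like cells. These came mainly from ctrl7D (2.27% thinned) and treat1D (2.75% thinned), and no sham sample had such a cell.

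The central question for the grafts was whether macrophage-like cells of transplanted ducts carried these receptors at other levels than those of sham ducts. Of the 8 genes, 1 was called, Cd163, beside 12.2% of the 10483 genes tested (5.59% higher, 6.66% lower). The samples are not stated to be separate rats, so p-values measure the spread between these samples, which may be technical.

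Cd163 in macrophage-like cells was at 75.8, 86.9 and 87.3 CPM in sham1 to sham3. It was at 224, 408 and 83.4 in ctrl1D, ctrl3D and ctrl7D and at 686, 274 and 53.3 in treat1D, treat3D and treat7D. The 4 samples of days 1 and 3 were above all 3 sham samples, ctrl7D lay among them and treat7D below them. Averaged over the 3 days, the log2 fold change was 1.51 (SE 0.347, edgeR adjusted p = 0.0304). By day against sham it was 2.37 at day 1 (SE 0.421, edgeR adjusted p = 0.0582, where 0.191% of genes were called), 2.18 at day 3 (SE 0.414, edgeR adjusted p = 0.0342, where 3.49% were called and 2.02% were higher) and −0.02 at day 7 (edgeR adjusted p = 0.990, where 3.42% were called). The average passed the threshold in 4 of the 9 fits that left out 1 sample. It was lost without sham2 (adjusted p = 0.116), sham3 (0.167), ctrl3D (0.0621), ctrl7D (0.0881) or treat3D (0.0555), and also without the day term (0.0971) and with the libraries as samples (0.156). Within the day 1 samples the libraries differed widely, at 491, 975 and 856 CPM in treat1D and 238, 0 and 217 in ctrl1D. At day 3 they were at 421, 74.9 and 228 in ctrl3D, where the second, a thin library of 78 macrophage-like cells with 17 Cd163 UMIs, was below every sham sample, and at 235 and 316 in treat3D.

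**Figure D2:**
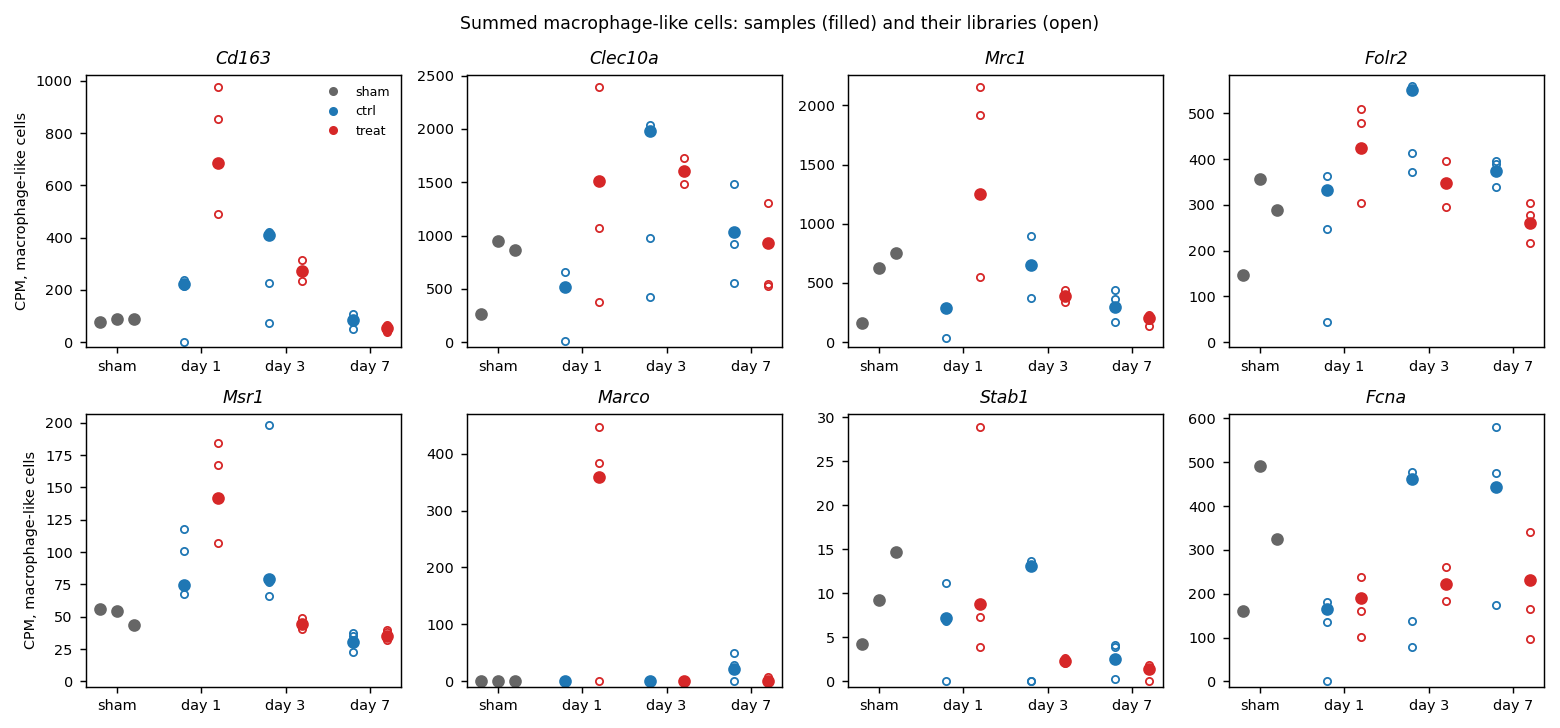
Levels of the 8 genes in macrophage-like cells of each sample, in CPM, with filled points for samples, open points for the libraries of a transplanted sample, and sham, day 1, day 3 and day 7 along the x axis. Cd163 is between 224 and 686 at days 1 and 3 and between 53.3 and 87.3 in the sham and day 7 samples, and Marco is above 0 in ctrl7D, treat1D and treat7D.

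The C-type lectins did not pass the test. Mrc1 was at 163, 626 and 756 CPM in sham1 to sham3, at 286, 651 and 298 in ctrl1D, ctrl3D and ctrl7D, and at 1251, 390 and 203 in treat1D, treat3D and treat7D. The groups overlapped, with treat1D above and no transplanted sample below all sham samples, and the log2 fold change was −0.07 (SE 0.533, edgeR adjusted p = 0.949). Clec10a was at 259.5, 945 and 863 in sham, at 518, 1980.0 and 1029.8 in ctrl and at 1514, 1608 and 931 in treat at days 1, 3 and 7. Of the transplanted samples 4 were above all sham samples, and the log2 fold change was 0.90 (SE 0.442, edgeR adjusted p = 0.188). Without sub-clusters 10 and 29, 2 genes were called, Cd163 and Clec10a (log2 fold change 1.30, adjusted p = 0.0210). No macrophage marker led these sub-clusters over all other cells, but C1qa and C1qb were among their leading genes over the median cluster. Leaving these out removed mostly sham cells, since sub-cluster 10 held 59.9% of the macrophage-like cells of sham2 and 39.7% of sham3 but at most 1.33% of any transplanted sample.

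Folr2 was at 146, 356 and 288 CPM in sham, at 332, 552 and 375 in ctrl and at 425, 347 and 259 in treat at days 1, 3 and 7. The groups overlapped, with a log2 fold change of 0.62 (SE 0.304, edgeR adjusted p = 0.191). Fcna was at 160, 492 and 326 in sham, at 166, 462 and 444 in ctrl and at 191, 223 and 231 in treat. All 6 transplanted samples lay inside the sham range, and the log2 fold change was −0.18 (SE 0.346, edgeR adjusted p = 0.752).

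Msr1 in macrophage-like cells was at 56.1, 54.6 and 43.3 CPM in sham, at 74.7, 78.8 and 30.6 in ctrl and at 142, 44.8 and 35.3 in treat at days 1, 3 and 7. Both day 1 samples and ctrl3D were above sham and both day 7 samples below it, with an average log2 fold change of 0.37 (SE 0.237, edgeR adjusted p = 0.308). Stab1 was at 4.21, 9.20 and 14.7 in sham, at 7.16, 13.1 and 2.49 in ctrl and at 8.76, 2.37 and 1.43 in treat. The groups overlapped, and the 3 lowest values were those of treat3D and both day 7 samples. The summed lymphatic endothelial markers in the same cells, a list that holds Lyve1 and Pdpn, were also lowest in these samples, at 58.2 CPM in treat3D, 55.0 in ctrl7D and 20.6 in treat7D, against 206 to 717 in the others, and their part was not tested. Its log2 fold change was −1.02 (SE 0.407, edgeR adjusted p = 0.122), and −1.20 without sham1, where it passed (adjusted p = 0.0394).

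Genes on the marker lists of other cell types moved in the same sums. The summed level of neutrophil markers in macrophage-like cells was 68.7 to 155 CPM in sham and 215 to 2986 in transplanted samples, with 3 of 9 tested markers higher. Inflammatory monocyte markers summed to 8339 to 11478 CPM in sham and 8443 to 26892 in transplanted samples (4 higher and 1 lower of 10). DC markers summed to 4632 to 6330 CPM in sham and 1458 to 3423 in transplanted samples (1 lower of 7, Cd209a at 0). Mesothelial markers summed to 118 to 471 and 1011 to 6551 CPM (1 higher of 3, with Upk3b, Lrrn4, Calb2, Gpm6a and Bnc1 at 0). That list holds Slpi, a leading gene of inflammatory monocyte-like sub-clusters 2 and 5 and of macrophage-like sub-cluster 29, so its sum is not specific to mesothelial cells. The inflammatory monocyte list holds Lyz2, which also led macrophage-like sub-clusters 3 and 6. The DC list holds Cst3, at 26937 CPM in DC-like cells against 113 for Clec9a, the next highest of that list. Its part in the DC sum of macrophage-like cells is not given here. Biliary epithelial markers summed to 176 to 287 and 40.7 to 248 CPM (5 lower of 9), and NK&T markers to 59.1 to 105 and 170 to 590 CPM (1 higher and 1 lower of 10, Gzmb at 0). Lymphatic endothelial markers summed to 206 to 613 and 20.6 to 717 CPM (1 lower of 3). Of the fibroblast, goblet and endocrine markers, 3 of 9, 3 of 6 and 3 of 3 tested were lower. Their part in the levels above was not tested.

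To see the levels without the shift in sub-clusters, sub-cluster 9, which was found in all 9 samples, was read on its own, as a description with 23 to 532 cells per sample. Cd163 there was at 2.87, 0 and 0 CPM in sham1 to sham3, at 55.5, 135 and 19.9 in ctrl1D, ctrl3D and ctrl7D, and at 263, 71.5 and 12.03 in treat1D, treat3D and treat7D. Sham1 held 1 UMI and sham2 and sham3 held 0, where 3 counts would have given 8.62, 24.5 and 36.9 CPM. The day 1 and day 3 values were above these limits, and the day 7 values of 19.9 and 12.03 were above that of sham1 and below those of sham2 and sham3. Over the sham cells pooled, 3 counts would have given 5.44 CPM, which all 6 transplanted values exceeded. That floor takes UMIs as independent over the pooled samples, so it is not a bound on a difference between groups. The share of all genes with this order is not given here. Sub-cluster 9 held 20.4%, 2.54% and 2.12% of the macrophage-like cells of sham1 to sham3, so it does not stand for the sham class. Clec10a in the same cells was at 149, 294 and 221 in sham, at 269, 794 and 414 in ctrl and at 605, 729 and 336 in treat, and Msr1 was at 60.4, 40.9 and 73.7 in sham, at 88.4, 80.6 and 35.5 in ctrl and at 141, 54.4 and 40.6 in treat. Clec10a in ctrl1D lay within the sham range, and Msr1 overlapped between the groups. Sub-cluster 4, the low-UMI one, had another order over the days. Cd163 there was at 3.41 CPM in sham1 (1 UMI), at 9.52, 66.2 and 52.7 in ctrl1D, ctrl3D and ctrl7D, and at 21.2, 98.4 and 30.6 in treat1D, treat3D and treat7D, on 6 to 50 UMIs per transplanted sample. Day 1 was the lowest of the 3 days in both arms there, whereas day 7 was the lowest in sub-cluster 9.

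In transplanted against sham macrophage-like cells, 5.59% of all genes were higher and 6.66% lower. Of the related lists, 17 other scavenger receptors were tested and had 1 higher, Mertk, a receptor for apoptotic cells (log2 fold change 1.28, edgeR adjusted p = 0.0145), and 1 lower, Havcr2 (−1.65, edgeR adjusted p = 0.00842). Their median log2 fold change was 0.35, beside −0.07 over all genes tested. Of 14 heme and iron genes, 3 were higher and 2 lower, with Lcn2 at 2.39, the metal transporter Slc11a1 at 1.77, the heme-sensing repressor Bach1 at −1.47 and Nfe2l2 at −1.09 (median of the list 0.61). Of 19 transcription factors, 1 was higher, Nr1h3, the liver X receptor alpha (2.48), and 3 were lower, among them Irf4 (−2.44) and Runx3 (−0.99), with a list median of −0.17.

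Of 18 inflammatory monocyte genes, 5 were higher and 2 lower, among them S100a8 (log2 fold change 3.14), S100a9 (3.09), Nos2 (2.86) and Plac8 (2.03), with a list median of 0.67. S100a8 and S100a9 are also neutrophil markers. Of 13 opsonins and ligands, 2 were higher, Fcnb (1.86) and Apoe (1.85), and 2 lower, Mfge8 (−1.47) and Pros1 (−1.43), with a list median of 0.47. Of 17 inducers and shedding factors, 1 was higher, Fkbp5, a glucocorticoid-induced gene (1.91), with a list median of −0.22.

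Between day 1 and day 7 after transplantation, none of the 8 genes was called in macrophage-like cells with edgeR, beside 0.143% of genes. At an unadjusted p under 0.05 there were 3, a count whose share over all genes is not given here. DESeq2 called 2, beside 3.12% of genes. Cd163 went from 224 to 83.4 CPM in ctrl and from 686 to 53.3 in treat, with a log2 fold change of −2.38 (SE 0.489, edgeR adjusted p = 0.0957). Msr1 went from 74.7 to 30.6 and from 142 to 35.3, with a log2 fold change of −1.43 (SE 0.325, edgeR adjusted p = 0.121). Stab1 went from 7.16 to 2.49 and from 8.76 to 1.43, with a log2 fold change of −1.96 (SE 0.585, edgeR adjusted p = 0.201). In these 3 genes both day 7 samples were below both day 1 samples, and the share of all genes with this order is not given here.

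The Cd163 difference passed the threshold without sham1 (adjusted p = 0.0289) or ctrl1D (0.0172) and with DESeq2 (0.000489), and Msr1 passed without sham1 (0.0389) and with DESeq2 (0.00658). Without ctrl1D, day 1 held treat1D alone, the sample with the highest Cd163, which the fit assumes to vary like the other groups. The log2 fold changes of the others were 1.09 for Fcna (SE 0.503), 0.35 for Clec10a (SE 0.615), −0.01 for Folr2 (SE 0.419) and −1.20 for Mrc1 (SE 0.813), none past the threshold. Of the related lists, Fcnb was the gene called (log2 fold change 2.05), which is on 2 of the lists.

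Raised arterial flow was compared with transplantation alone over the 3 days, treat minus ctrl. With edgeR, 0 of the 8 genes were called in macrophage-like cells, where 0% of 10483 genes were called and 316 had an unadjusted p under 0.05. None of the 8 was under 0.05 unadjusted, and DESeq2 called 0 genes. The log2 fold changes were 0.12 for Cd163 (SE 0.386), 0.23 for Mrc1 (SE 0.665), 0.36 for Clec10a (SE 0.505), −0.28 for Folr2 (SE 0.343), 0.11 for Msr1 (SE 0.265), −1.003 for Stab1 (SE 0.481) and −0.59 for Fcna (SE 0.408). The errors were as large as most of these differences, so the values do not show that the arms were alike either. At day 1 alone, all 8 genes were higher in treat1D than in ctrl1D, but each arm had 1 sample there and the difference has no replicate check. The share of all genes that were higher there is not given here. The low-UMI sub-cluster 4 held 68.7% of the macrophage-like cells of ctrl1D and 26.1% of those of treat1D, and its part was not tested.

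**Figure D3:**
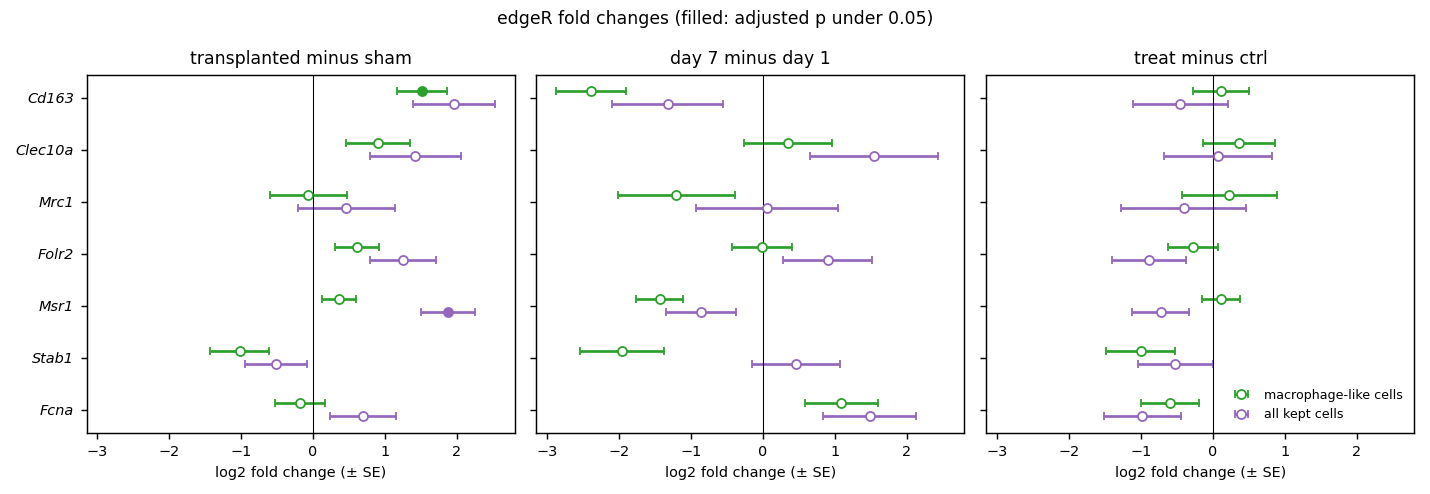
Log2 fold changes with standard errors from edgeR for each gene in macrophage-like cells and in all kept cells, for transplanted minus sham, day 7 minus day 1 and treat minus ctrl, with filled points for an adjusted p under 0.05 and Marco left out. Cd163 at 1.51 in macrophage-like cells and Msr1 at 1.88 in all cells are the called values of transplanted minus sham.

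Over all kept cells of a sample, where the number of cells of a class and the RNA per cell cannot be told apart, Msr1 was the 1 of 8 genes called after transplantation, beside 17.9% of 16392 genes (9.18% higher). DESeq2 called 5, beside 33.1% of genes. Msr1 was at 8.20, 6.94 and 3.35 CPM in sham, at 17.0, 41.5 and 14.4 in ctrl and at 20.2, 14.1 and 8.88 in treat at days 1, 3 and 7. Every transplanted sample was above every sham sample, the nearest being treat7D at 8.88 and sham1 at 8.20. The share of all genes with this order is not given here. Inflammatory monocyte-like cells, which held 47.0% of its UMIs, numbered 55, 65 and 119 in sham1 to sham3 and 973 to 3106 in the transplanted samples, and their part in the difference was not tested. The log2 fold change was 1.88 (SE 0.375, edgeR adjusted p = 0.0252), and the call was lost without sham2 (adjusted p = 0.0853), sham3 (0.0936), ctrl3D (0.0577), ctrl7D (0.0790) or treat7D (0.0723). By day it was 2.05 at day 1 (edgeR adjusted p = 0.0541, where 4.2% of genes were called) and 2.38 at day 3 (SE 0.442, edgeR adjusted p = 0.0345, where 5.99% were called and 4.62% were higher). At day 7, 0 of the 8 genes passed, beside 8.46% of genes, with 2 at an unadjusted p under 0.05 and 1 by DESeq2, which called 25.6% of genes. The share of all genes at that unadjusted p is not given here, so the count of 2 cannot be judged.

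Cd163 over all cells was at 7.98, 10.1 and 5.48 CPM in sham, at 12.6, 87.6 and 13.8 in ctrl and at 37.0, 21.7 and 9.04 in treat. Its highest value, in ctrl3D, was the sample whose 2 thin libraries lost most barcodes, and 5 of 6 transplanted samples were above all sham samples. The log2 fold change was 1.96 (SE 0.572, edgeR adjusted p = 0.0599), and 2.29 without ctrl1D, where it passed (adjusted p = 0.0279). The other log2 fold changes were 1.42 for Clec10a (edgeR adjusted p = 0.156), 1.25 for Folr2 (0.102), 0.69 for Fcna (0.309), 0.46 for Mrc1 (0.644) and −0.52 for Stab1 (0.416).

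From day 1 to day 7 over all cells, 0 of the 8 genes were called, beside 3.09% of genes, with 0 at an unadjusted p under 0.05 and 0 by DESeq2. Between treat and ctrl, 0 were called, beside 0% of genes, with 0 unadjusted and 0 by DESeq2. For both comparisons the unadjusted and DESeq2 shares over all genes are not given here. The treat minus ctrl log2 fold changes ran from −0.98 for Fcna to 0.07 for Clec10a among the genes other than Marco.

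Over all cells after transplantation, 9.18% of all genes were higher and 8.74% lower. Of the related lists, 3 of 26 other scavenger receptors were higher, Megf10 (log2 fold change 2.97), Olr1 (1.77) and Cd68 (1.501). Of 16 heme and iron genes, 6 were higher, among them Hp (3.90) and Slc11a1 (3.03). Of 22 inducers and shedding factors, 6 were higher and 3 lower, the lower ones being the type 2 cytokines Il13 (−4.19) and Il4 (−1.95) and the sheddase inhibitor Timp3 (−1.63). Of 21 transcription factors 7 were higher and 2 lower, with Spic at 2.64 and Spi1 at 1.74.

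The share of macrophage-like cells among all kept cells was 14.9%, 14.5% and 9.81% in sham, 5.61%, 14.1% and 10.98% in ctrl and 4.95%, 5.68% and 12.4% in treat at days 1, 3 and 7. The groups overlapped, and the difference of −4.13 percentage points gave p = 0.190 in a two-sided exact permutation test. Among leukocytes alone, macrophage-like cells made up 54.7% to 74.8% in sham and 10.2% to 20.2% in transplanted samples, with no overlap (−48.7 points, exact permutation p = 0.0238, which is the smallest these 9 samples can give).

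Within the macrophage-like cells, the 8 genes followed sub-clusters, which are given as pooled levels without a test. Cd163 was at 1413 CPM in sub-cluster 20 (458 cells, led by Mrc1, F13a1 and Adgre1 among others) and 509 in sub-cluster 16 (871 cells, led by Apoe, Cfd and Pltp among others). Mrc1 was at 2606 in sub-cluster 20 and 956 in sub-cluster 14, which came mostly from sham2 and sham3. Fcna was at 1063 in sub-cluster 16, and Folr2 at 711 in sub-cluster 16 and 634 in sub-cluster 20.

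Clec10a was at 5757 CPM in sub-cluster 29, of which 90.9% of 99 cells came from the treat1D_1 library, and at 2282 in sub-cluster 16. Msr1 was at 172 in sub-cluster 29 and at 169 in sub-cluster 22, which was inflammatory monocyte-like. Sub-cluster 20 thus held the highest levels of Cd163 and Mrc1, and sub-cluster 16 those of Fcna and Folr2. The treat1D_3 library gave 46.3% of sub-cluster 20 and the ctrl3D_1 library 58.8% of sub-cluster 16, so sub-cluster and sample cannot be told apart there.

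**Figure D4:**
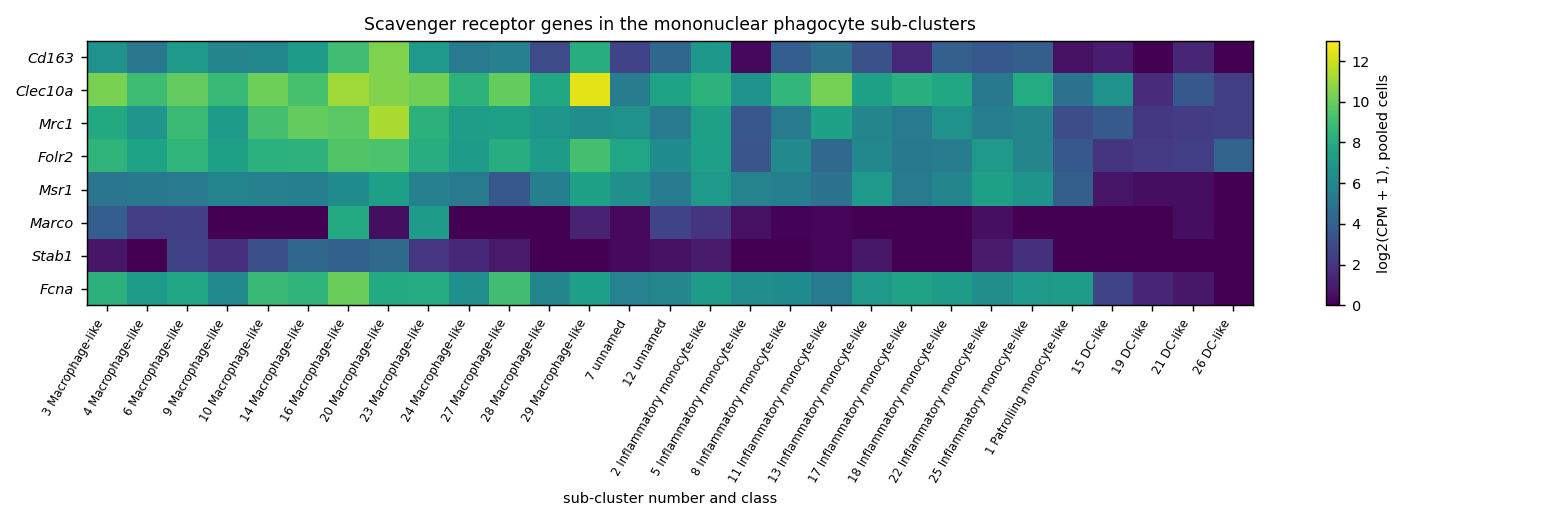
Pooled level of each gene (one line per gene) in each mononuclear phagocyte sub-cluster (columns, by class), as log2(CPM + 1) on 1 colour scale. Cd163 and Mrc1 peak in sub-cluster 20 at 1413 and 2606, Fcna and Folr2 in sub-cluster 16 at 1063 and 711, and Clec10a in sub-cluster 29 at 5757.

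The genes were also detected in the same cells. After thinning, 41.0% to 56.0% of macrophage-like cells in sham2, sham3, ctrl3D, treat1D and treat3D had at least 2 of the 8 genes, against 35.7% in ctrl7D, 24.5% in treat7D, 18.6% in ctrl1D and 7.42% in sham1. The last 2 samples were those made mostly of the low-UMI sub-cluster 4. Mrc1 was seen in a median of 56.7% of cells with Cd163 and 24.7% of cells without it, and the share was higher with Cd163 in 8 of 8 samples. Cd163 was seen in 20.8% of cells with Clec10a and 3.63% of cells without (9 of 9 samples), and Fcna in 43.0% of cells with Cd163 and 14.6% without (8 of 8 samples). Msr1 was more frequent among Folr2 cells in 9 of 9 samples, among Cd163, Fcna and Mrc1 cells in 6 of 8 each, and among Clec10a cells in 4 of 9.

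The genes whose levels over 16 cell classes were most like each member were picked by Pearson's r of log2 CPM among 11228 genes, as a description over classes that share libraries. For Cd163 they were Ms4a4e (r = 0.963), Ms4a7 (0.956) and Gapt (0.953). For Folr2 they were Siglec1 (0.972), Spic (0.962) and Gapt (0.958). For Clec10a they were Slamf9 (0.944), Folr2 (0.939) and AABR07059308.1 (0.929). For Fcna they were Csf1r (0.957), Siglec1 (0.946) and Clec4a1 (0.940).

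For Mrc1 they were Ccl24 (0.875), F10 (0.845) and Dab2 (0.818), and for Stab1 Lyve1 (0.927), F10 (0.894) and Scarf1 (0.873). For Msr1 they were Slc37a2 (0.934), Hk3 (0.906) and Csf1r (0.906). For Marco they were Cd5l (0.977), Cd207 (0.971) and Vsig4 (0.963), of which Cd5l and Vsig4 are known from liver Kupffer cells.

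Marco was carried by few cells. In macrophage-like cells its UMIs numbered 0 in sham1, sham2, sham3, ctrl1D, ctrl3D and treat3D, 482 in ctrl7D from 13 cells, 2173 in treat1D from 18 cells and 22 in treat7D from 6 cells. In CPM these were 21.8, 359 and 1.05. The floor of 3 counts over the pooled sham macrophage-like cells was 0.307 CPM. Marco was at 1171 times this floor in treat1D, 71.2 times in ctrl7D and 3.41 times in treat7D. These ratios are not bounds on a difference between groups, because the floor takes UMIs as independent. The UMIs came from few cells, with up to 391 in a cell of treat1D, and ctrl1D, ctrl3D and treat3D were at 0 as well. Within treat1D the 3 libraries were at 447, 0 and 383 CPM. In treat7D, 20 of the 22 UMIs came from the treat7D_3 library, and without it the level was 0.110 CPM, under the sham floor. Without ctrl7D_2, ctrl7D was at 13.6 CPM, and without ctrl7D_3 at 36.7.

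Of all kept cells, 36 had at least 3 Marco UMIs, 19 in treat1D, 10 in ctrl7D, 5 in treat7D and 2 in treat3D, and 1 of them held 391. Sub-cluster 16 held 17 of these cells. Kupffer cell genes were frequent in them. Clec4f, a lectin of Kupffer cells, was seen in 75.0% of the 36 cells and in 0.295% of 13205 macrophage-like cells without Marco. Cd5l was seen in 80.6% and 0.666%, and Vsig4, a complement receptor, in 80.6% and 1.35%. By library, the Marco cells held a mean of 1.0, 0.5 and 1.0 Clec4f UMIs in ctrl7D_3, treat3D_2 and treat7D_3. In the other libraries with such cells the mean was 8.0 to 41.0. Among the other members, Fcna was at 1031 CPM in the 36 cells and 333 in those without Marco, and Cd163 at 373 and 180.0. Folr2 was at 396 and 356, and Mrc1 was lower in the Marco cells, at 304 and 441. Lyve1 was also lower, at 25.1 and 130 CPM. The shares above were not thinned, and the Marco cells had median depths of 2612 to 16857 UMIs by library, beside 4775 over all macrophage-like cells. Since the cells were chosen by Marco after its values were seen, these shares carry no test.

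Most Marco UMIs of treat3D were outside the kept cells. Over all barcodes, Marco had 2425 UMIs in treat3D, of which 0.536% were in kept cells, against 59.4% of 3915 in treat1D, 46.8% of 1064 in ctrl7D and 36.7% of 128 in treat7D. Sham1 had 1 Marco UMI and sham2 and sham3 had 0.

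**Figure D5:**
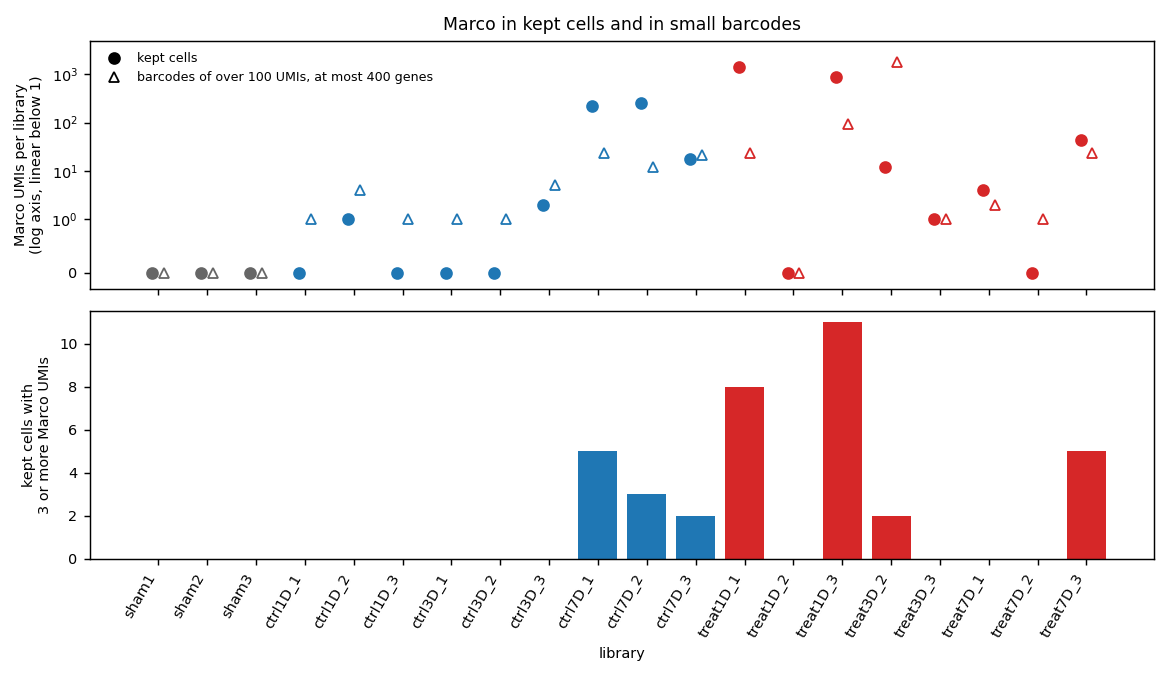
Upper panel, Marco UMIs of each library on a log axis that is linear below 1, in kept cells (circles) and in barcodes of over 100 UMIs and at most 400 genes (triangles), and lower panel, the number of kept cells with 3 or more Marco UMIs. The sham libraries hold 0 of both, treat1D has 19 such cells and ctrl7D 10, and the highest triangle is a treat3D library.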

How the data were processed

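Bile duct cells of 9 samples (20 libraries) were read as the deposited UMI counts per gene and barcode. The authors made these counts with Cell Ranger 5.0.1 and used Seurat 3.2.0, per the labels, and the genome build is not given in the sources used here. The members and lists were chosen with earlier results of these data known. A barcode was kept if it had over 400 genes, less than 6000 genes, and mitochondrial and hemoglobin shares below 25% and 3%. Of these 150182 barcodes, 11270 were removed as doublets by a score above the 92.5 percentile. Leiden clustering at resolution 0.9 gave 42 clusters, and 32537 mononuclear phagocytes were clustered again at resolution 1 into 29 sub-clusters, of which 13 were macrophage-like. This second step was chosen after the first clustering had been seen and before any test. Members and listed genes were left out of clustering. Counts were summed per sample (at least 20 cells) and fitted across all genes with edgeR 4.0.16 (quasi-likelihood test, TMM, Benjamini-Hochberg adjustment, threshold 0.05) with terms for sham, day and arm. Standard errors were taken from the F statistic. DESeq2 1.42.0 was an alternative. Named genes were all members, up to 4 called genes of each list with the largest change, and the 3 genes most like each member. The value of 1 further gene that the rule names is not reported here.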

Additional observations from a re-analysis of the deposited data

Results flagged for a closer look

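Marco was also read in the small barcodes that the comparisons did not use, those with over 100 UMIs and at most 400 genes. In 4 transplanted samples its level there was above the level that 3 counts would have given in sham2 (1.65 CPM), the sham sample with the fewest UMIs in such barcodes. The sham samples had 0, and ctrl1D and ctrl3D were at 0.458 and 0.638 CPM. Treat3D held 1774 Marco UMIs (208.3 CPM) in 791 of 20081 such barcodes, treat1D 117 (9.66 CPM) in 69 of 27753, ctrl7D 57 (3.65 CPM) in 29 of 31639 and treat7D 27 (2.10 CPM) in 22 of 29639. In the treat3D_2 library, the 790 small barcodes with Marco also held Cd5l at 3037 CPM, against 120 CPM in those without it, Clec4f at 808 against 44.5, and Vsig4 at 498 against 19.3. C1qa was at 7705 against 1395. The cause was not tested. No group of samples had 4 or more samples, so no sample was tested for standing apart from its group.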

How the results depend on the processing

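The class comparisons have the sample as a block, and ctrl and treat share a day term. No further pairing was possible, because each transplanted group is 1 sample and the numbers of the sham samples pair them with nothing. Of 1109 values of single genes under the alternatives, 1022 kept direction and side of the threshold, 16 lost and 21 gained a call, and 50 changed sign, none of them where the reported value had passed the threshold. Depth limits Stab1 and Marco, and the smallest macrophage-like sum was that of sham1 (338 cells). The sets of sub-clusters left out, the thin libraries left out and the unnamed clusters added were chosen after seeing the data.

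For transplanted against sham in macrophage-like cells, 1 gene was called as reported, 0 with no day term and 0 with libraries as samples. There were 2 without the sub-clusters that no own marker led over all other cells, and 0 to 2 when 1 sample was left out. For day 7 against day 1 in macrophage-like cells, 0 were called as reported, 3 with no filter on low counts, 2 with DESeq2, 3 with libraries as samples, 2 at Leiden resolution 2, 1 without low-UMI sub-clusters, and 0 to 2 when 1 sample was left out. Over all genes, the 15 called there became 357 with no filter, 327 with DESeq2, 990.0 with libraries as samples and 108 at Leiden resolution 2. Over all cells, transplanted against sham gave 5 with DESeq2 and 0 to 2 when 1 sample was left out, and day 7 against day 1 gave 1 with libraries as samples. No count is given for lymphatic against blood endothelium, where both genes of the reported fit entered through the lymphatic cells. The macrophage-like share differed by −48.7 points among leukocytes. The cause of these changes was not tested.

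Changes of sign, as log2 fold changes, were as follows. For transplanted against sham in macrophage-like cells, Fcna was 0.0188 without the sub-clusters that no own marker led over all other cells. Mrc1 was 0.0138 with no filter and 0.000362 with no day term. For day 7 against day 1, Folr2 was 0.0397 with no filter, 0.29 with libraries as samples, 0.0301 with free RNA subtracted and 0.00613 with no doublet removal. It was 0.0156 with no hemoglobin limit and 0.0432 without the sub-clusters that no own marker led over all other cells. For treat against ctrl, Folr2 was 0.0128 with libraries as samples, and Msr1 was −0.29 at Leiden resolution 2 and −0.16 with the unnamed clusters. Over all cells, Cd163 for treat against ctrl was 0.0625 with libraries as samples and Clec10a was −0.62 with no day term. Msr1 in macrophage-like against monocyte-like cells was 0.14 at Leiden resolution 2.

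With 1 sample left out, transplanted against sham in macrophage-like cells ran from −0.52 to 0.27 for Fcna and from −0.60 to 0.30 for Mrc1. Day 7 against day 1 ran from −0.34 to 1.19 for Clec10a, −0.35 to 0.37 for Folr2 and −2.27 to 0.26 for Mrc1. Treat against ctrl ran from −0.54 to 0.56 for Cd163, −0.15 to 0.67 for Clec10a, −0.58 to 0.73 for Mrc1 and −0.23 to 0.44 for Msr1. Over all cells, Mrc1 ran from −0.25 to 0.94 for transplanted against sham. Day 7 against day 1 ran from −2.42 to 0.42 for Cd163, −1.15 to 2.05 for Mrc1 and −0.31 to 1.57 for Stab1, and treat against ctrl from −1.36 to 0.36 for Cd163, −0.81 to 0.86 for Clec10a, −1.40 to 0.48 for Mrc1 and −1.13 to 0.15 for Stab1.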
